A study of Mus musculus with 60 samples.

Results

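The comparison described here sets 5 arrays of fetal mouse brain exposed to chlorpyrifos oxon (CPO) at 0.85 mg/kg/d (mg per kg body weight daily) against 5 arrays at dose 0, all in mice with the Q192 human PON1 transgene (tgHuPON1Q192, Q-tg). These 10 arrays are part of a series of 60. They were not taken by their deposited labels but by reassigned ones, because the deposited labels look displaced. The 60 samples were numbered by group label in text order and then by replicate, the numbers were sorted as text with the character _ at their end (10_ to 19_, then 1_, then 20_ and so on), and the label of each sorted number was given to the value column at that place. This order is inferred and is stated by no label. The level of mouse Pon1, which the inference had to fit, is given below as a description.

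All groups have the strain background B6.129. The dams received CPO for 12 days, on gestational days 6 to 17, and fetal brains were collected on gestational day 18. Each array held the combined RNA of a single dam's fetuses, so the replicate is the dam, and dams whose own brain acetylcholinesterase activity lay far from their group were left out by the submitters before a random draw. The groups used here are Q-tg at 0.85, Q-tg at 0.75 and Q-tg at 0, wild type (WT) at 0.85 and at 0, and mice with the R192 form of the transgene (tgHuPON1R192, R-tg) at 0.85 and at 0, with 5 arrays each. The remaining 25 arrays, among them 15 of PON1-knockout (KO) mice at 0, 0.50 and 0.75 mg/kg/d, entered the model that estimates the spread. The labels do not say which promoter drives the transgene, nor whether the transgenic mice keep their own Pon1 gene.

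CPO is the active metabolite of the insecticide chlorpyrifos. It inactivates acetylcholinesterase, the enzyme that ends cholinergic signalling, and also binds butyrylcholinesterase, carboxylesterases and other serine hydrolases. Paraoxonase 1 (PON1) is made chiefly in the liver, circulates on high-density lipoprotein and hydrolyses CPO. The human Q and R forms differ in a single amino acid, and the R form hydrolyses CPO more efficiently. A fetal brain at this age holds dividing progenitors, newly formed neurons, radial glia, early vessels and the choroid plexus, so genes of these cells and of the cholinergic system are described by group below.

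Under the reassigned labels, the mouse Pon1 signal was 9.92, 9.83, 9.91, 9.87 and 9.99 in the 5 Q-tg arrays at 0.85, against 10.03, 9.91, 9.88, 9.97 and 9.85 in the 5 at dose 0. Signals are log2 values, so 1 unit is a doubling of signal. All 10 arrays were therefore high for mouse Pon1, and the groups overlapped. Over the series 15 arrays were low, at 4.84 to 5.67, and all 15 fell on the label KO. The 15 arrays of Q-tg lay at 9.83 to 10.05, those of R-tg at 9.74 to 10.12 and those of WT at 9.72 to 10.14. With a limit of 7, 0 arrays went against their reassigned genotype, while 10 did under the deposited labels and 12 when the numbers were sorted without the character _.

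**Figure D1:**
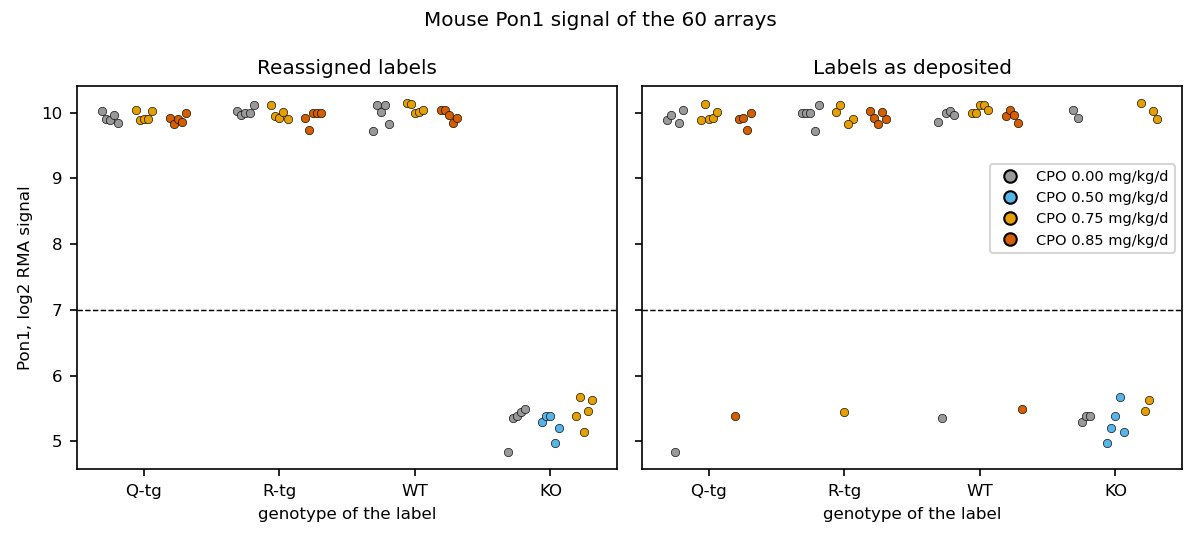
Mouse Pon1 signal (vertical axis, log2) of each of the 60 arrays by the genotype of its label, reassigned on the left and deposited on the right, with colour for the CPO dose and the dashed line at 7. All low arrays fall on KO under the reassigned labels, and 10 arrays go against their genotype under the deposited ones.

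Pon1 says which 15 arrays carry the numbers 1 to 15 of the list, not which genotype was listed first. If the genotypes were numbered in the order in which the series' design text names them, with WT first, the 15 low arrays would carry the label WT, which puts 30 arrays against the Pon1 rule, and the 10 arrays compared here would be KO at 0.75 and at 0. That count takes mouse Pon1 to be intact in WT and in both transgenic lines. As background, such transgenic lines have been described on a Pon1-deficient background, where KO, Q-tg and R-tg would all lack mouse Pon1. No more than 15 of the 60 arrays were low, which is fewer than that background would give. That these 15 are KO rests on the meaning of that genotype label and on the inferred order. No gene measured here checks the dose of an array. Among the 45 arrays with high Pon1, a limma F test for genotype over all genes called 704 of 21789 (3.23%) under the reassigned labels, against 0 (0%) under the deposited ones, where the smallest adjusted p was 0.873. The fits differ in form, with 3 genotypes under the reassigned labels and 4 under the deposited ones, which put KO on some of these arrays. The F test stays the same when the 3 genotypes exchange names. It therefore cannot tell which of them is Q-tg, and it does not use the dose.

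By their deposited labels, the 5 arrays taken as Q-tg at 0.85 were replicates 2, 3 and 5 of R-tg at 0.85 and replicates 1 and 3 of WT at 0. Those taken as Q-tg at 0 were replicates 4 and 5 of KO at 0.75 and replicates 1, 2 and 4 of Q-tg at 0. The tissue of the 10 arrays matched its label. The cortical neuron genes Neurod6 and Tbr1 lay at 10.57 to 10.78 and at 10.04 to 10.40 in the 0.85 arrays, against 10.58 to 10.76 and 10.11 to 10.25 at dose 0. Fabp7, a fatty acid binding protein of radial glia, lay at 13.03 to 13.31 in the 0.85 arrays and at 13.31 to 13.36 at dose 0.

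One array stood apart from the other 9. Replicate 3 at 0.85 had the highest median signal, 7.80 against 7.68 to 7.71 in the others, and correlated least with the rest, with a mean r of 0.9939 across genes against 0.9960 to 0.9973. limma's array weights gave it 0.244, where the next lowest weight was 0.529. It also had the lowest signal of the muscle gene Trdn, 6.79 against 7.59 to 7.88 in the other 0.85 arrays and 7.56 to 7.73 at dose 0. No pair of the 10 arrays held identical values. Results that rest on this array are given with and without it.

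No gene changed in Q-tg fetal brain at 0.85 mg/kg/d by the test used. limma with Benjamini-Hochberg adjustment called 0 of 21789 transcript clusters (0%) at an adjusted p under 0.05, and the smallest adjusted p was 0.914. A transcript cluster is the array's set of probes for 1 transcribed region, and those with exactly 1 gene symbol were tested. At an unadjusted p under 0.05 there were 799 (3.67%), fewer than the 1089 that chance gives, with 672 higher (3.08%) and 127 lower (0.583%). The 5 and 5 arrays did not overlap for 100 transcript clusters (0.459%), of which 68 (0.312%) were higher and 32 (0.147%) lower at 0.85.

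The differences were small. Their median over all transcript clusters was 0.02, and 61.0% were above 0. The 95% confidence interval reached a median of 0.129 log2 units to either side of the difference. The size of the difference exceeded 0.5 for 4 transcript clusters, whose largest value, 1.10, belongs to a sex-linked gene treated below. The excess of higher values depended on the scale and on 1 array. With every array's median set to 0 (centring) the unadjusted count was 738, with 419 higher and 319 lower. Without replicate 3 at 0.85 it was 363, with 207 higher and 156 lower, and the median over all transcript clusters was 0.003.

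Genes of the cholinesterases, the enzymes that CPO binds, had even RNA levels. The arrays measure RNA and not enzyme activity. Acetylcholinesterase (Ache) had 8.88, 8.77, 8.98, 8.74 and 8.85 at 0.85, against 8.81, 8.91, 8.74, 8.73 and 8.89 at dose 0. The groups overlapped throughout, and the log2 difference was 0.03 (SE 0.06, limma adjusted p = 0.999). Butyrylcholinesterase (Bche) lay at 6.53 to 6.91 at 0.85 and at 6.61 to 6.77 at dose 0, a difference of 0.01. ColQ anchors acetylcholinesterase at muscle synapses and PRiMA anchors it in brain membranes. Their genes Colq and Prima1 differed by 0.03 (SE 0.09) and -0.02 (SE 0.09).

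Neither did the other paraoxonases stand out. Pon2, an intracellular paraoxonase, had 7.58, 7.42, 7.57, 7.40 and 7.60 at 0.85, against 7.63, 7.36, 7.58, 7.40 and 7.55 at dose 0. Pon3, which is carried on lipoprotein like Pon1, lay at 6.43 to 6.75 at 0.85 and at 6.55 to 6.70 at dose 0. Their differences were 0.01 and -0.01, and that of Pon1 was -0.03 (SE 0.08). Of the 7 paraoxonase, cholinesterase and anchor genes, 4 were higher and 3 lower at 0.85, with differences between -0.03 and 0.03.

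Serine hydrolases that organophosphates bind were measured by 30 genes, of which 21 were higher and 9 lower at 0.85, with a median of 0.02 as over all genes. The lipase genes Pnpla2 and Lipe (0.09 each), the thioesterase gene Lypla2 (0.09) and the carboxylesterase gene Ces2g (-0.21) had the largest differences, and 2 of the 30 had an unadjusted p under 0.05. Ces2g is dim, that is below a signal of 6.54. Of 1035 transcript clusters of olfactory receptors, which mark the background here, 95% lay below that level. Among 19 cholinergic neuron and receptor genes 11 were higher and 8 lower, with a median of 0.02. The largest values were 0.13 for the nicotinic receptor subunit Chrna6, which is dim, -0.08 for the muscarinic receptor Chrm3, 0.08 for the nicotinic subunit Chrnb2 and 0.08 for the choline transporter Slc5a7. The test called none of these genes.

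The 20 genes of smallest p among those above the dim level are given as values, since none passed. Of these, 19 were higher and 1 lower at 0.85, with differences from -0.23 to 0.26, which is at most 1.20-fold. Their limma adjusted p was 0.914 for Tigd3 and 0.999 for the other 19. A choice by smallest p leaves 0 outside each 95% interval, so these intervals give sizes and no further evidence. The 5 and 5 arrays did not overlap for 7 of the 20, against 100 of all 21789 (0.459%). The choice by smallest p favours such genes, so this count is no further evidence either.

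Tigd3, which derives from a transposase, had the smallest p. Its signal was 7.44, 7.45, 7.71, 7.62 and 7.57 at 0.85, against 7.29, 7.37, 7.34, 7.35 and 7.42 at dose 0. Each array at 0.85 was above each at dose 0, by a narrow margin between the lowest and the highest. The means were 7.56 ± 0.12 and 7.36 ± 0.04 (SD, n = 5 each), a log2 difference of 0.20 with a 95% interval of 0.11 to 0.30.

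Csrnp1, a nuclear transcription factor, was the only one of the 20 with a lower value. It had 6.79, 6.58, 6.66, 6.69 and 6.55 at 0.85, against 6.84, 7.05, 6.88, 6.82 and 6.81 at dose 0. The groups did not overlap, although the highest array at 0.85 was close to the lowest at dose 0. The difference was -0.23, with a 95% interval of -0.34 to -0.11.

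Several of the 20 have roles in division, in progenitors or in patterning. Lin37 encodes a subunit of the DREAM complex, which represses cell cycle genes in resting cells. It had 8.79, 8.83, 8.83, 8.80 and 8.66 at 0.85, against 8.55, 8.67, 8.60, 8.53 and 8.53 at dose 0. Replicate 5 at 0.85 was at the level of replicate 2 at dose 0, and the other 8 arrays were apart. Pold1, the catalytic subunit of DNA polymerase delta, had 7.54 to 7.74 at 0.85 against 7.31 to 7.51 at dose 0, with no overlap.

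Msi1, the RNA-binding protein Musashi of neural stem cells, had 10.22, 10.17, 10.33, 10.18 and 10.28 at 0.85, against 10.07, 10.09, 10.03, 10.13 and 10.07 at dose 0. Its groups did not overlap, and the difference was 0.16 (95% interval 0.07 to 0.25). Tead2, a transcription factor of the Hippo pathway, differed by 0.21, with replicate 3 at 8.98 and the other 0.85 arrays at 8.57 to 8.66, against 8.41 to 8.60 at dose 0. Wnt3, a Wnt ligand, lay at 6.93 to 7.32 at 0.85 and at 6.69 to 7.03 at dose 0, and the groups overlapped.

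The remaining genes have varied roles. Cfap52, a protein of motile cilia, had 7.55, 7.54, 7.72, 7.61 and 7.58 at 0.85, against 7.25, 7.33, 7.46, 7.39 and 7.41 at dose 0, with no overlap and a difference of 0.23. Mindy4, a deubiquitinase, had 7.21 to 7.38 at 0.85 against 7.04 to 7.16 at dose 0 and did not overlap either. The melanocortin receptor Mc5r had the largest difference of the 20, 0.26, with 7.06 to 7.46 at 0.85. At dose 0 its replicate 1 was at 7.31, within that range, and the other 4 were at 6.91 to 7.001.

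Metabolic and transport genes were among them too. Urod, an enzyme of haem synthesis, differed by 0.19, the collagen lysyl hydroxylase Plod1 by 0.16, the potassium chloride cotransporter Slc12a7 by 0.14 and the prenyl protein protease Rce1 by 0.18. Serinc5, a membrane protein that limits retroviral infectivity, differed by 0.16 and the DEAD-box helicase Ddx55 by 0.18. The values of the zinc finger gene Zbtb8b (0.18), Sh3bp5l (0.20), Fam89b (0.15) and Xkr7 of the XK-related family (0.18) were of the same size. Of these 10 genes only Sh3bp5l had groups that did not overlap.

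**Figure D2:**
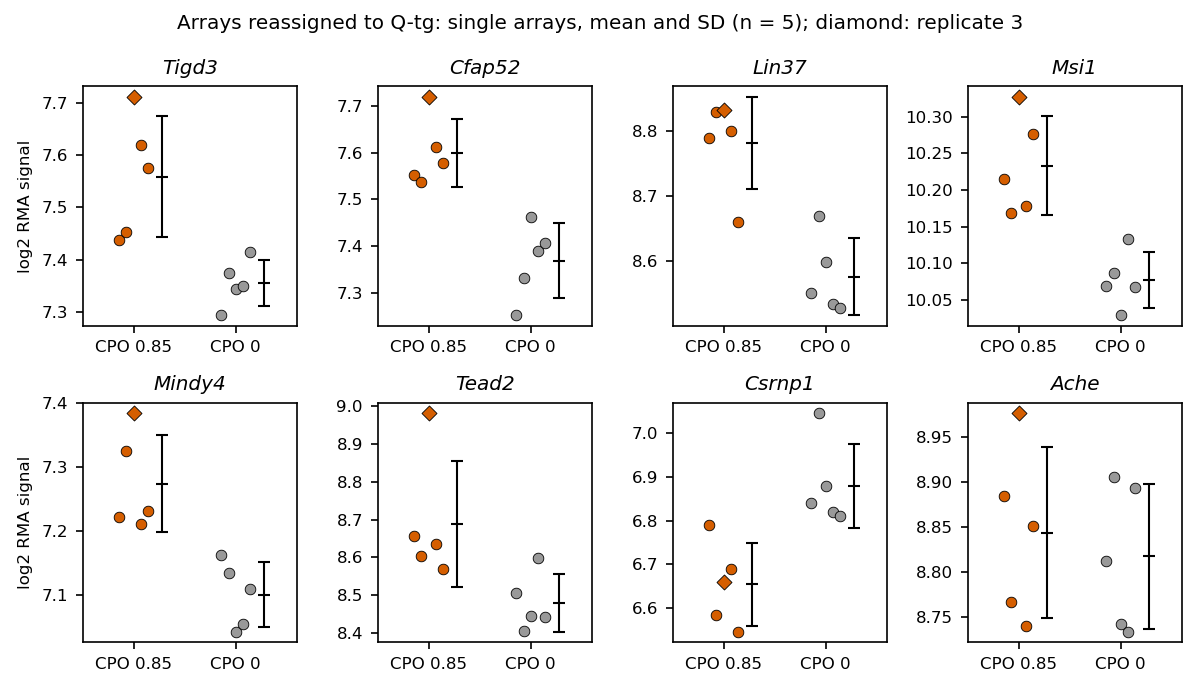
Log2 signal (vertical axes, which do not start at 0) of 8 genes in the arrays reassigned to Q-tg at CPO 0.85 and at 0, with the mean and SD beside the points and a diamond for replicate 3 at 0.85. Tigd3, Cfap52, Msi1, Mindy4 and Csrnp1 have groups that do not overlap, and Ache overlaps throughout.

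Replicate 3 at 0.85 was the highest of the 10 arrays in 18 of the 20 genes. The 20 genes were chosen on all 10 arrays, this one included, so what they keep without it is no independent evidence. Without replicate 3 all 19 higher genes stayed above 0 and Csrnp1 below, with sizes from 0.10 to 0.23. Of the 20, 7 had groups without overlap, as did 225 transcript clusters in all (1.03%). The smallest adjusted p over all genes was then 1.00.

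Dim genes are given as values too. The 5 of smallest p below the dim level were the formyl peptide receptor gene Fpr-rs6 (-0.40), the pluripotency gene Dppa2 (-0.38), the cytochrome P450 gene Cyp3a16 (0.47), the interferon-inducible Ifi205 (0.37) and Tex29 (0.28). Fpr-rs6 had 3.62, 3.65, 3.18, 3.55 and 3.35 at 0.85, against 3.67, 3.77, 3.90, 3.90 and 4.13 at dose 0. At these levels the signal lies in the range of olfactory receptor genes, and the limma adjusted p was 0.914 for Fpr-rs6 and 0.999 for the other 4.

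Gene groups were described through 32 lists with 729 entries, of which 658 were measured, for 647 distinct genes. limma called 0 of the 647, and 23 (3.55%) had an unadjusted p under 0.05, close to the 3.67% over all transcript clusters. The median was above 0 in 25 lists and below in 7. Medians of single lists ran from -0.03 to 0.09, the 4 sex-linked genes aside, and are to be read against the 0.02 and the 61.0% of higher values over all transcript clusters. Centring turned the sign of 12 of the 32 medians, and leaving out replicate 3 at 0.85 turned that of 10. Without replicate 3 the higher members fell from 21 to 14 of 30 serine hydrolases and from 12 to 8 of 20 astrocyte and radial glia genes. They fell from 19 to 14 of 28 NRF2 genes, from 23 to 16 of 34 respiratory chain genes and from 12 to 8 of 18 thyroid hormone and retinoid genes. Skeletal muscle genes rose from 14 to 21 of 29.

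Progenitor and cell cycle genes had the highest list median. All 29 measured members were above 0 at 0.85, with a median of 0.09, 0 called and 4 at an unadjusted p under 0.05. After centring or quantile normalization 27 of the 29 were higher, with a median of 0.07 each, and without replicate 3 also 27, with a median of 0.05. Rrm2, a subunit of ribonucleotide reductase, had 9.17, 8.91, 9.45, 9.22 and 9.04 at 0.85, against 8.93, 8.86, 9.02, 9.13 and 8.92 at dose 0, which overlap. Its difference was 0.19, and those of the mitotic checkpoint kinase Bub1b, the mitotic kinase Aurkb and the ubiquitin-conjugating enzyme Ube2c were 0.13 each.

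The mean signal of these 29 genes was 8.38, 8.29, 8.51, 8.38 and 8.39 in the arrays at 0.85, against 8.27, 8.25, 8.29, 8.43 and 8.29 at dose 0. Replicate 4 at dose 0 lay above 4 of the 5 arrays at 0.85, so the groups overlapped. Genes of the hindbrain, given below, also varied between these arrays, and their part in this mean was not tested. In RNA of whole brain, more cells of a type and more RNA per cell cannot be told apart.

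**Figure D3:**
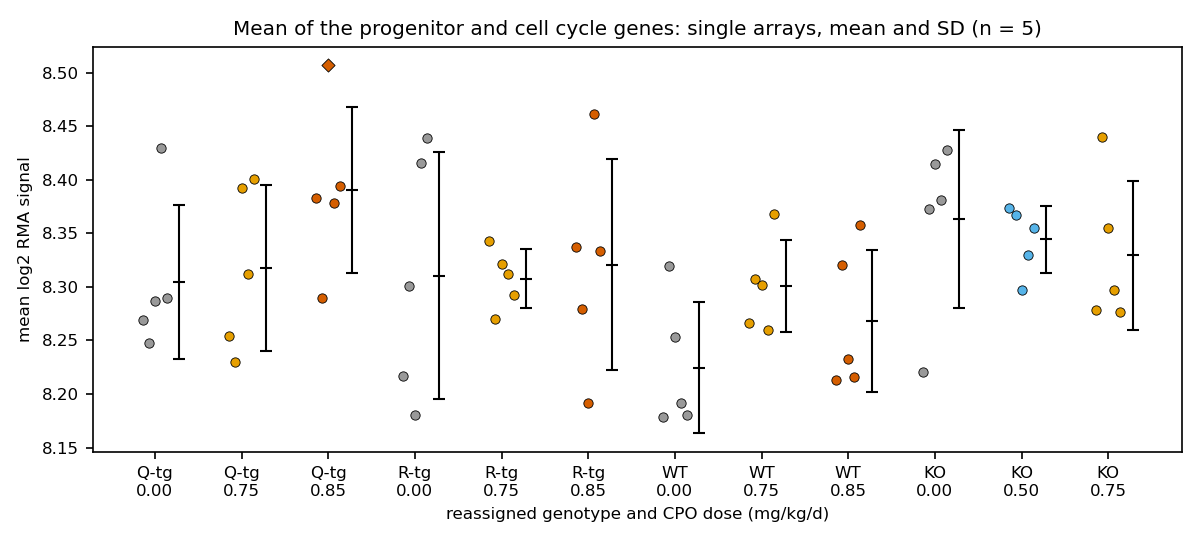
Mean log2 signal of the 29 progenitor and cell cycle genes (vertical axis, not from 0) in each array of the 12 reassigned groups, with mean and SD (n = 5) and a diamond for replicate 3 of Q-tg at 0.85. Q-tg at 0.85 lies at 8.29 to 8.51 and Q-tg at 0 at 8.25 to 8.43, a range that other groups share.

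Neuronal groups had smaller values. Of 17 cortical projection neuron genes 16 were higher, with a median of 0.05, led by the transcription factors Pou3f2 (0.13), Fezf2 (0.09), Emx2 (0.09) and Sox5 (0.08). Without replicate 3 this was 10 of 17, with a median of 0.02. Of 15 GABA neuron genes 10 were higher, with a median of 0.03 that was -0.01 without replicate 3. Lhx6, a transcription factor of cortical interneurons, differed by 0.14, and its values of 8.52 to 8.98 at 0.85 spanned the 8.53 to 8.63 at dose 0. The vesicular GABA transporter Slc32a1 (0.10), somatostatin (Sst, 0.07) and the GABA receptor subunit Gabra2 (-0.06) had the next largest values.

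Synapse genes had the lowest list median, -0.03, with 7 of 25 higher and 18 lower. It stayed below 0 after centring (-0.05) and quantile normalization (-0.02), and without replicate 3 it was -0.05, with 2 of 25 higher. Shank1, a postsynaptic scaffold, differed by -0.11, the NMDA receptor subunits Grin2a and Grin2b by -0.09 and -0.06 and the scaffold Dlg2 by -0.07. None of the 25 had an unadjusted p under 0.05 with all arrays in the model, and 2 had one without replicate 3. Of 35 axon guidance genes 25 were higher, with a median of 0.03 that was -0.01 without replicate 3, led by Efnb1 (0.11), Robo3 (0.09, dim), Ntn1 (0.09) and Dcc (0.08).

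Glial lists were near the median of all genes. Astrocyte and radial glia genes were higher in 12 of 20, with a median of 0.02 that was -0.01 after centring. Fabp7 had 13.26, 13.31, 13.03, 13.23 and 13.31 at 0.85, against 13.36, 13.36, 13.32, 13.34 and 13.31 at dose 0. Its lowest array was replicate 3, and the difference was -0.11 (SE 0.04). The next were the angiotensinogen gene Agt (-0.11), the water channel Aqp4 (-0.10) and the Notch target Hes5 (0.07).

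Of 15 oligodendrocyte lineage genes 7 were higher and 8 lower, with a median of -0.02. The largest values were those of the myelin genes Mag (0.15) and Mobp (-0.14, dim), of Ugt8a (-0.09) and of the lineage factor Nkx2-2 (0.09). Microglia genes were higher in 14 of 17, with a median of 0.02 that was -0.01 after centring, led by Aif1 (0.20, dim), Itgam (0.12, dim), C1qc (0.11) and Laptm5 (0.09).

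Choroid plexus and vessels came next to the cell cycle list. Of 13 choroid plexus genes 12 were higher, with a median of 0.07, and without replicate 3 all 13, with the same median of 0.07. After centring the median was 0.04. Folr1, the folate receptor of the choroid plexus, had 8.25, 8.31, 8.42, 8.28 and 8.27 at 0.85, against 8.12, 8.22, 8.12, 8.06 and 8.15 at dose 0. The groups did not overlap, and the difference was 0.17 (SE 0.07, limma adjusted p = 0.999). The transcription factor Otx2 differed by 0.20, the thyroxine carrier transthyretin (Ttr) by 0.09 and Sostdc1 by 0.08.

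Of 23 vascular and pericyte genes 22 were higher, with a median of 0.06, of 0.04 after centring and of 0.04 without replicate 3, where 18 were higher. The glucose transporter Slc2a1 of brain endothelium had 10.95, 10.72, 10.91, 10.75 and 10.88 at 0.85, against 10.65, 10.69, 10.54, 10.73 and 10.70 at dose 0. The groups overlapped by 1 array on either side, and the difference was 0.18. The endothelial receptor Eng (0.14), the pericyte receptor Pdgfrb (0.12) and the pericyte potassium channel Kcnj8 (0.11) followed.

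Stress lists showed no called gene either. Integrated stress response genes were higher in 20 of 25, with a median of 0.04 (0.02 after centring), among them Chac1 (0.13), Ddit4 (0.12) and Sesn2 (0.10), with Fgf21 at -0.07 and dim. Hypoxia genes were higher in 20 of 25 too, with a median of 0.04 (0.02 after centring), led by Slc2a1, Adm (0.14) and Ddit4, which other lists share, and Hk1 (-0.11). Endoplasmic reticulum chaperones were lower in 14 of 18, with a median of -0.02, led by Dnajb9 (-0.11), Canx (-0.06), Syvn1 (0.05) and Hsp90b1 (-0.05). Cytosolic heat shock genes were lower in 10 of 16, with a median of -0.02 and the largest values for Chordc1 (-0.15), Hspe1 (-0.10), Hspb8 (0.08) and Dnaja1 (-0.07).

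The 28 targets and partners of NRF2, the regulator of the oxidative stress response, had 19 higher members and a median of 0.02 that was -0.004 after centring. Prdx1 (-0.15), Keap1 (0.10), Gstp1 (0.10) and Hmox1 (0.10) led it. Immediate early genes, which neuronal activity induces, were higher in 12 of 24, with Dusp1 (0.15), Jun (0.14), Fosb (-0.13) and Junb (0.10) leading. Ribosomal protein genes were higher in 17 of 33 and respiratory chain genes in 23 of 34, with medians of 0.00 and 0.02.

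Hypothalamic neuropeptide and regulator genes were higher in 12 of 16, with a median of 0.01 that was -0.01 after centring. Neurotensin (Nts), a neuropeptide, had 8.22, 7.94, 8.30, 8.29 and 8.36 at 0.85, against 8.42, 8.45, 8.55, 8.38 and 8.38 at dose 0. Its groups did not overlap, with a difference of -0.21 (SE 0.09, limma adjusted p = 0.999). Sim1, a transcription factor of the hypothalamus, differed by 0.18, growth hormone-releasing hormone (Ghrh) by -0.09 and Nr5a1 by -0.08.

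The remaining lists were near the median of all genes. Xenobiotic metabolism genes were higher in 12 of 18, with a median of 0.03, led by the efflux pump Abcb1b (0.15, dim), Gstt1 (0.12), Cyp1a2 (-0.12, dim) and Cyp2e1 (0.11, dim). Thyroid hormone and retinoid genes were higher in 12 of 18, with a median of 0.02, led by Aldh1a3 (0.10), the deiodinase Dio2 (-0.10), Dhrs3 (0.09) and Nrgn (-0.06). Complement and interferon genes were higher in 11 of 22, with a median of -0.01, led by Tnf (0.15, dim), Ifit3 (-0.12, dim), Ifitm3 (-0.12) and Irf7 (-0.10, dim). The neighbours of Pon1 on chromosome 6 were higher in 10 of 16, with a median of 0.02, led by Asb4 (0.16), Slc25a13 (0.09), Gngt1 (-0.08, dim) and Dync1i1 (-0.08). Bone, cartilage and nasal mucosa genes were higher in 13 of 19, with a median of 0.02, led by Bpifa1 (0.17), Bpifb9b (0.15) and Obp1a (-0.15), all dim, and Krt15 (-0.10).

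**Figure D4:**
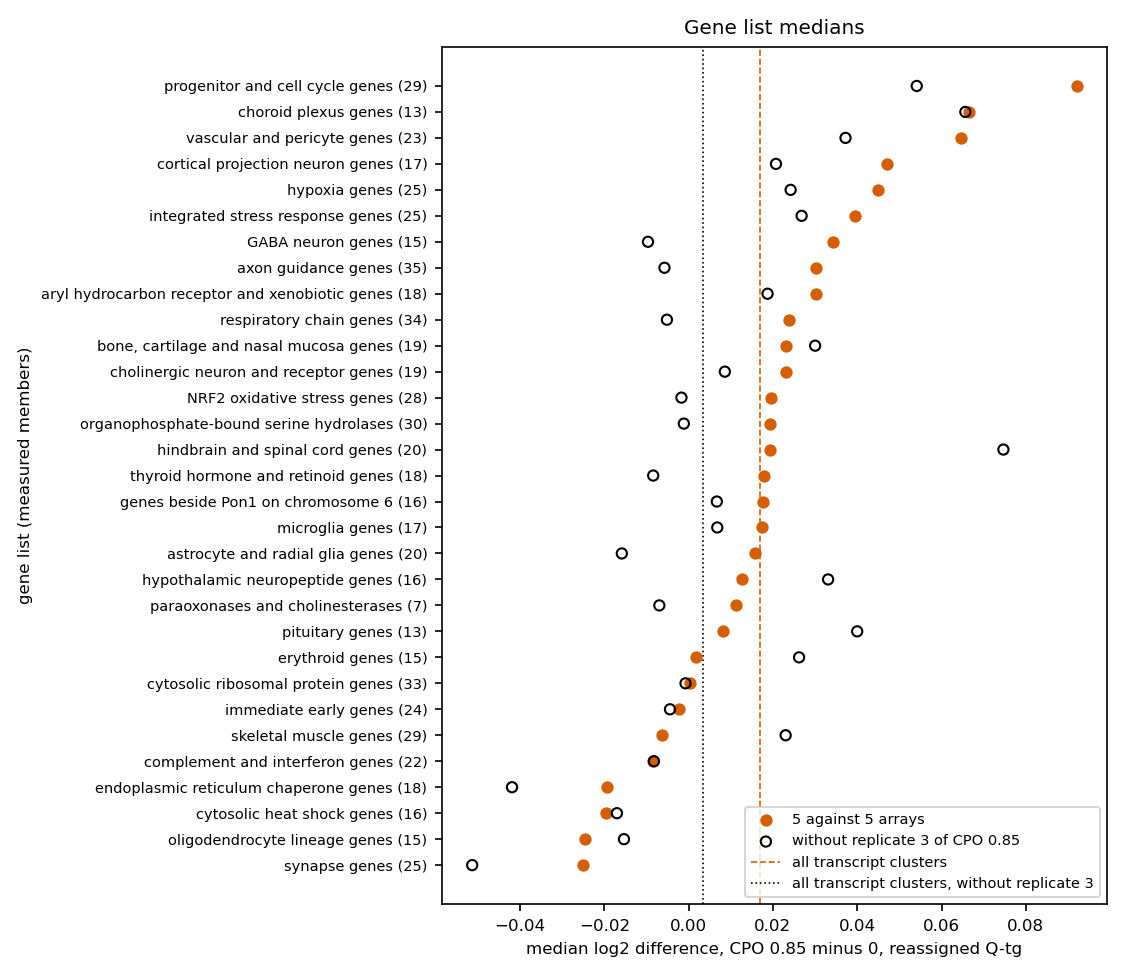
Median log2 difference (horizontal axis, CPO 0.85 minus 0 in reassigned Q-tg) of 31 gene lists with their numbers of measured members, for all 10 arrays (filled) and without replicate 3 at 0.85 (open), with the medians over all transcript clusters as lines. Progenitor and cell cycle genes have the highest median with all arrays, synapse genes the lowest, and hindbrain genes move most without replicate 3.

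Markers of other tissues and of the sex of the pool varied between arrays. Hindbrain and spinal cord genes were higher in 14 of 20, with a median of 0.02, and without replicate 3 in 19 of 20, with a median of 0.07. Their summed level, as the mean of the 20, ran from 6.35 (replicate 3) to 6.93 at 0.85 and from 6.45 to 6.80 at dose 0. The largest differences were those of Hoxb4 (0.09, dim), Hoxc4 (0.08, dim), Hoxd3 (0.07) and Hoxb3 (0.07). Hoxa5 ran from 6.31 to 7.84 at 0.85 and from 6.43 to 7.67 at dose 0. Skeletal muscle genes were higher in 14 of 29, with a mean of 6.69 (replicate 3) to 6.95 at 0.85 and of 6.83 to 6.86 at dose 0, and Myog (0.13, dim), Tnnt1 (-0.13, dim), Myh3 (-0.11, dim) and Trdn (-0.11) led. Their part in the values above was not tested.

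Growth hormone (Gh), the product of the pituitary, was high in 1 array of each group, 9.30 in replicate 1 at 0.85 and 8.84 in replicate 3 at dose 0. The other 4 were at 6.71 to 7.07 at 0.85 and at 6.71 to 6.97 at dose 0. Of 13 pituitary genes 7 were higher at 0.85, with a median of 0.01, and Tshb (-0.19, dim), Cga (0.12), Gh (0.11) and Prl (-0.10, dim) had the largest values. Of 15 erythroid genes, 10 of them dim, 8 were higher, with a median of 0.00, led by Hbb-y (0.17, dim), Alas2 (0.15), Rhag (-0.12, dim) and Tal1 (0.10).

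The X-linked Xist and the Y-linked Eif2s3y were both high in 4 of 5 arrays of each group. Xist was at 5.63 in replicate 5 at 0.85, and Eif2s3y was at 4.18 in replicate 4 at dose 0. Eif2s3y differed by 1.10 (SE 0.94) and Xist by -1.10 (SE 1.33). With both as covariates the cell cycle median was 0.10, and 0 transcript clusters were called.

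Doses of 0.75 and 0.85 in Q-tg share their dose 0 arrays, so the values of both are set side by side only. At 0.75 limma called 0 of 21789 (0%), with 590 at an unadjusted p under 0.05, and the median over all transcript clusters was -0.003. Of the 20 genes above, 17 were higher at 0.75 than at 0, with differences from -0.09 to 0.17, and 1 had an unadjusted p under 0.05. The cell cycle median was 0.01 at 0.75, with 18 of 29 higher, and 0.09 at 0.85. Msi1 lay at 10.08 ± 0.04 at 0, 10.08 ± 0.07 at 0.75 and 10.23 ± 0.07 at 0.85 (SD, n = 5 each). Tead2 lay at 8.48 ± 0.08 at 0, 8.46 ± 0.09 at 0.75 and 8.69 ± 0.17 at 0.85. The test of 0.85 against 0.75 called 0 of 21789 (0%), with a smallest adjusted p of 0.745 and 1376 at an unadjusted p under 0.05.

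At the same dose of 0.85 against 0, limma called 1 of 21789 in WT (0.00459%) and 0 in R-tg (0%), with 1490 and 2838 at an unadjusted p under 0.05. The gene called in WT was the dim olfactory receptor gene Olfr124, which is named because it is the single call and not by the rule for named genes. It had 5.36 ± 0.24 at 0.85 and 5.79 ± 0.16 at 0 in WT (SD, n = 5 each), a difference of -0.43 (SE 0.08, limma adjusted p = 0.0189), and 0.04 (SE 0.08) in Q-tg. The difference between these responses, Q-tg minus WT, was 0.47 (SE 0.11, limma adjusted p = 1.00) and did not pass.

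Of the 20 genes, 17 were higher at 0.85 in WT, with differences from -0.08 to 0.20, and 19 in R-tg, from -0.02 to 0.16. Urod differed by 0.19 in Q-tg, 0.20 in WT and 0.07 in R-tg, and Ddx55 by 0.18 in Q-tg, -0.08 in WT and 0.16 in R-tg. Csrnp1 differed by -0.23 in Q-tg, -0.07 in WT and 0.15 in R-tg. The response in Q-tg minus that in R-tg was -0.38 for Csrnp1 (SE 0.08, limma adjusted p = 0.313). The dim Fpr-rs6, at -0.59 (SE 0.13), had the same adjusted p, the smallest of that test. No gene was called for a response that differs from that in WT (0 of 21789, 0%, with 712 at an unadjusted p under 0.05) or in R-tg (0 of 21789, 0%, with 794). The 95% interval of such a difference reached a median of 0.183 log2 units to either side.

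**Figure D5:**
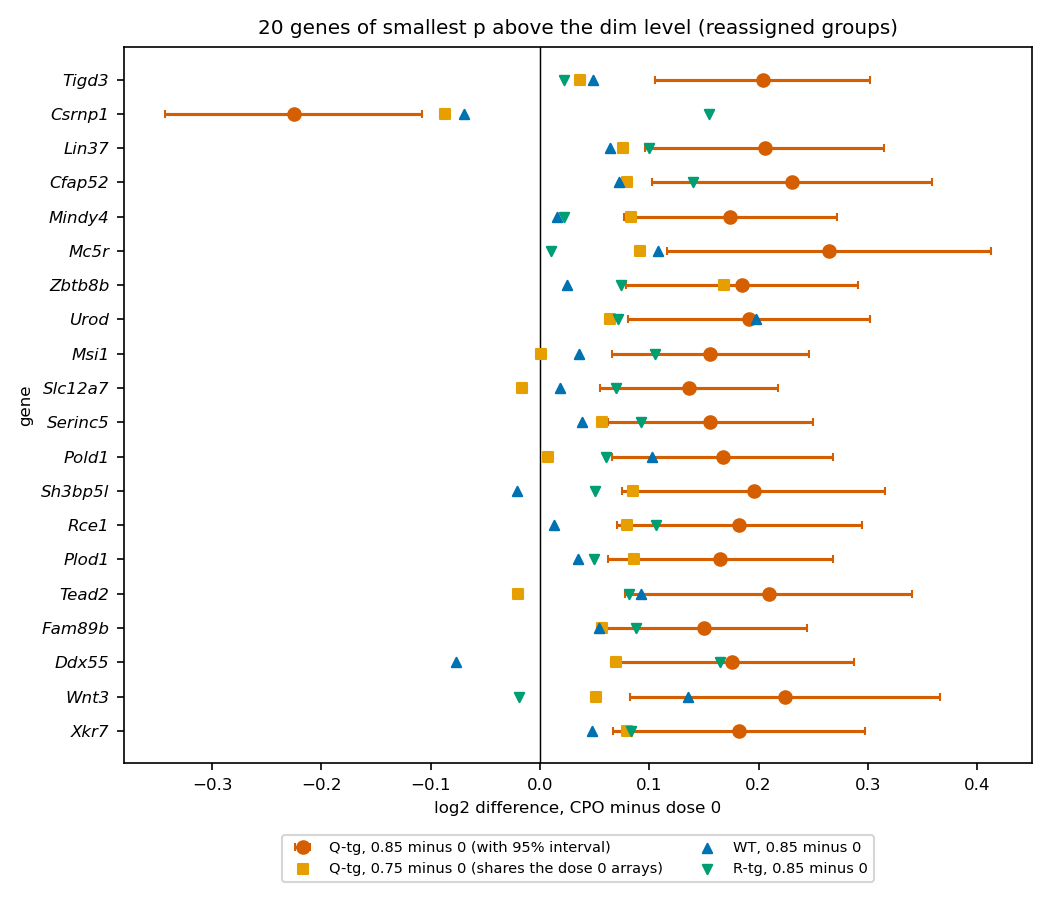
Log2 difference of CPO minus dose 0 (horizontal axis) for the 20 genes of smallest p above the dim level, in reassigned Q-tg at 0.85 with its 95% interval, and in Q-tg at 0.75, WT at 0.85 and R-tg at 0.85. The genes were chosen on the Q-tg 0.85 values, which lie farthest from 0 for most of them, and 0 of the differences between responses passed.

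Cell cycle genes were higher at 0.85 in 24 of 29 in WT, with a median of 0.04, and in 16 of 29 in R-tg, also with a median of 0.04, against 29 of 29 in Q-tg. The medians over all transcript clusters were 0.01 in WT, 0.04 in R-tg and 0.02 in Q-tg, so the R-tg list median was that of all genes. Of the 29, 0 were called in any of these comparisons. The difference of the response, Q-tg minus WT, was above 0 for 18 of 29, and Q-tg minus R-tg for 24 of 29, with medians of 0.03 and 0.07 and 0 called in both. In WT the median of the synapse list was 0.00 and in R-tg -0.01, against -0.03 in Q-tg.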

How the data were processed

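Total RNA of fetal brain, pooled per dam, was measured on 60 Affymetrix Mouse Gene 1.0 ST arrays. The deposited values are log2 signals that the authors made with RMA in oligo 1.22.0 under R 2.15.1, per the submitters' processing notes and the deposited notes. RMA corrects background and equalizes the signal distributions of arrays, but shifts between arrays remained in the deposited values. The array medians ran from 7.66 to 7.81 over the 60 arrays. The table holds 28858 transcript clusters, of which 21789 had exactly 1 gene symbol in GEO's platform annotation (1621 had several, 5448 none), for 19938 genes. Gene names were updated through a RefSeq gene table (GRCm38.p6), which held 21698 of the 21789. Arrays carry no read depth, and their number limits the precision. Scan dates were not used here, so scan batches were not tested.

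The values were used as deposited. One limma model (limma 3.58.1, R 4.3.3) used all 60 arrays in their 12 reassigned groups and gave 7 contrasts, 2-sided, adjusted over 21789. The scripts were tested on simulated data. The named genes were Pon1, Pon2, Pon3, Ache and Bche, passing genes, the 20 of smallest p above and the 5 below the dim level where fewer passed (predicted genes, small RNA genes and olfactory receptors gave way), and 4 members per described list with the largest absolute difference. Any other gene was chosen after its values were seen. The members, the order of the arrays and the lists were chosen with earlier results of these data known. Same-numbered arrays did not pair (1 of 5 correlations above 0.1). Alternatives were the deposited labels, other orders, the variance prior, array weights, the dim filter, all transcript clusters, centring, quantile normalization, a replicate block, covariates, fewer arrays and leaving out each array.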

Additional observations from a re-analysis of the deposited data

Results flagged for a closer look

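In groups of 5 arrays, a value was marked where its gap to the nearest other array exceeded 0.71 of the range of its group (Dixon's test at 95%). It was applied to 42 genes and array measures in 84 groups and marked 12, where chance marks about 1 group in 20. Among the arrays taken as Q-tg at 0.85, replicate 3 was marked for Plod1 (8.85 against 8.59 to 8.63 in the others), Tead2 (8.98 against 8.57 to 8.66), Trdn (6.79 against 7.59 to 7.88) and the mean of the synapse genes (10.02 against 9.88 to 9.90). Replicate 1 was marked for Gh (9.30 against 6.71 to 7.07) and Dppa2 (4.38 against 4.12 to 4.16), and replicate 5 for Lin37 (8.66 against 8.79 to 8.83).

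At dose 0 the marked values were those of replicate 1 for Mc5r (7.31 against 6.91 to 7.001), replicate 3 for Gh (8.84 against 6.71 to 6.97) and for Cyp3a16 (3.53 against 3.44 to 3.46), and replicate 4 for the mean of the progenitor and cell cycle genes (8.43 against 8.25 to 8.29). The median signal of replicate 5 (7.70 against 7.69 in the others) was marked because the other 4 lay within 0.003 of each other.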

How the results depend on the processing

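The count of 0 called genes at 0.85 against 0 held under all alternatives but 1. With the genotypes numbered in the order of the design text it was 1, with 1490 at an unadjusted p under 0.05. That order puts the Q-tg label on the arrays taken here as WT. These are therefore the counts of the WT comparison above and not of the 10 arrays. That unadjusted count, 799 in the 10 arrays, was 1232 with array weights and 1449 with the lower quartile of the signal as covariate. Leaving out each array gave 363 to 1713, the lowest without replicate 3 and the highest without replicate 2 at 0.85, with 0 called each time. The labels as deposited take other arrays as Q-tg at 0.85. Under these labels the unadjusted count was 842 with 0 called, and the single call in WT at 0.85 was then 0. With the replicate number as a block it was 821 with 0 called, where same-numbered correlations ran from -0.15 to 0.40 and 2 of 5 arrays correlated best with their own number. The arrays against the Pon1 rule were 10 under the deposited labels, 12 without the character _ and 30 in the order of the design text. The genotype calls among arrays with high Pon1 were 0 under the deposited labels, against 704 (96 without the character _). The cell cycle median ran from 0.05 to 0.12 over the arrays left out and was -0.003 under the deposited labels, with 13 of 29 higher. Centring changed the sign of 12 of the 32 list medians, and leaving out replicate 3 at 0.85 changed that of 10. The causes were not tested.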
